A study of Homo sapiens with 8 samples.

Results

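The genes described here are 10 genes of ADP-ribosylation and antiviral restriction, grouped as interferon-linked, a label that was not tested gene by gene. They are PARP1, PARP9, PARP10, PARP12, PARP14, DTX3L, ZC3HAV1, SAMD9, SAMD9L and HELZ2. They were chosen by gene name, and all 10 were found among the 60282 genes of the deposited count table. All 10 also passed the filter on low counts, which asked for more than 1 CPM in 4 or more libraries and kept 14073 genes. CPM are counts divided by the effective size of their library, so that libraries of different depth can be compared. The cells were SK-UT-1, an established line from a human uterine leiomyosarcoma, so the data describe 1 cell line. They received DMSO vehicle (4 libraries) or TP-472, an inhibitor of the bromodomain proteins BRD9 and BRD7, at 5 µM (4 libraries), and total RNA was sequenced. The treatment with TP-472 lasted 48 h. The study's methods state that its experiments used biological replicates, without naming these libraries, and the labels do not say whether the 4 libraries of a group came from separate cultures, so the p-values measure only the spread between these libraries, which may be technical. Library totals were 34433596, 36634184, 32574716 and 36407850 estimated counts for vehicle replicates 1 to 4 and 38545695, 37674588, 37427131 and 36246466 for TP-472 replicates 1 to 4.

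Interferons are secreted signals that bind receptors on the cell surface and activate the kinases JAK1 and TYK2. These activate transcription factors, STAT2 among them, which join IRF9 to form ISGF3, the complex that binds interferon-stimulated response elements in promoters and switches on interferon-stimulated genes. Many of these genes encode proteins that block viruses, and several belong to the PARP family, whose enzymes use NAD+ to attach ADP-ribose to proteins or nucleic acids. PARP1 belongs to the same family but is best known as the main sensor of DNA breaks and the chief target of clinical PARP inhibitors.

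Vehicle replicate 3 stood apart from the other libraries. Its median Spearman correlation with the other vehicle libraries was 0.914, against 0.988 to 0.989 for vehicle replicates 1, 2 and 4 and 0.993 to 0.997 within the TP-472 group. Its deviation from the group mean followed the GC content of the genes, with a Pearson r of 0.726 across the 13970 tested genes of known GC content. The same held among the 10 genes, across which GC content and the deviation had an r of 0.916. HELZ2 and PARP10, with GC contents of 67.2% and 66.9%, were 1.90 and 1.01 log2 units higher in vehicle replicate 3 than in the mean of the other vehicle libraries, whereas SAMD9, at 36% GC, was 0.82 lower (log2 difference −0.82). Fold changes of the 10 genes are therefore given with all 8 libraries, without vehicle replicate 3, and with the trend on GC content removed from each library. Those of other genes are given with all 8 libraries unless another setting is named. The GC correction was fitted to the deviation of each library from the mean of all 8 libraries. It therefore also removes any difference between TP-472 and vehicle that follows GC content. The part of GC content in any result was not tested beyond that correction.

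**Figure D1:**
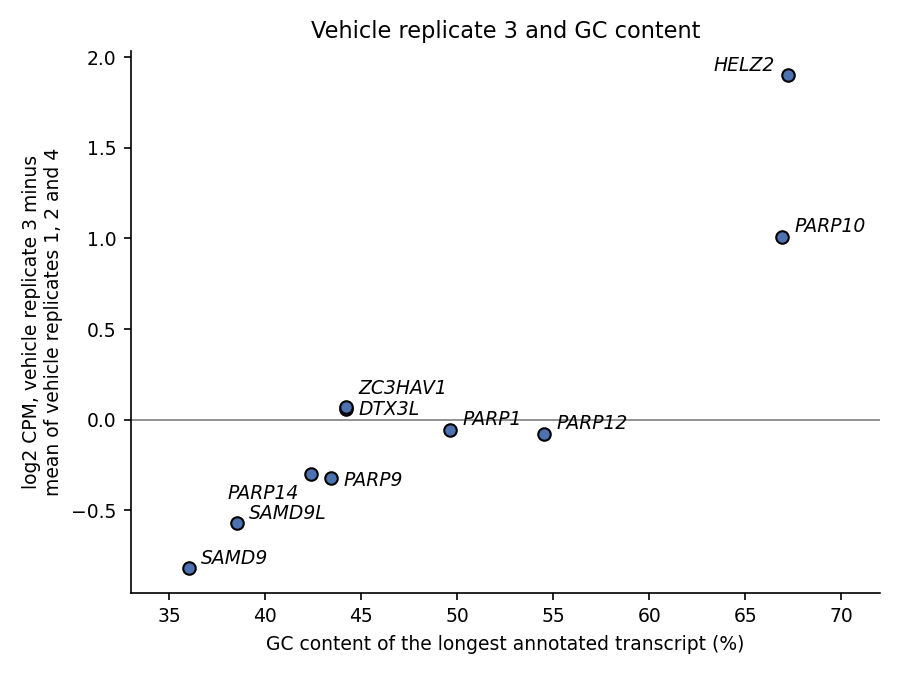
Deviation of vehicle replicate 3 (log2 CPM minus the mean of vehicle replicates 1, 2 and 4) against the GC content of the longest annotated transcript (%), 1 point per gene for the 10 genes. The deviation runs from −0.82 for SAMD9 at 36% GC to 1.90 for HELZ2 at 67.2% GC.

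To ask how these genes responded to TP-472, the libraries of treated and vehicle cells were compared gene by gene. A gene was called where edgeR's quasi-likelihood test gave p under 0.05 after Benjamini-Hochberg adjustment over all 14073 genes and the fold change was over 1.5. By this rule 8 of the 10 genes were lower with TP-472 and 0 were higher, while 26.9% of all tested genes were called, 14.9% lower and 12% higher. The genes that fell were PARP9, PARP10, PARP12, PARP14, DTX3L, SAMD9, SAMD9L and HELZ2, by 1.84-fold (PARP12) to 5.64-fold (SAMD9L). ZC3HAV1 passed the p-value limit at a smaller fold change, and PARP1 passed neither. The median log2 fold change over the 10 genes was −1.65, beside −0.026 over all tested genes. The count of 8 was the same without vehicle replicate 3, where 13.1% of 13879 tested genes were called lower, and with the GC correction, where 15% were. In all 10 genes the TP-472 libraries and the vehicle libraries did not overlap, 9 of them with TP-472 lower and PARP1 with TP-472 higher. Among all tested genes, 21.6% had groups that did not overlap with TP-472 lower and 23.8% with TP-472 higher. In bulk RNA, fewer cells with a transcript and less of it per cell cannot be told apart.

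**Figure D2:**
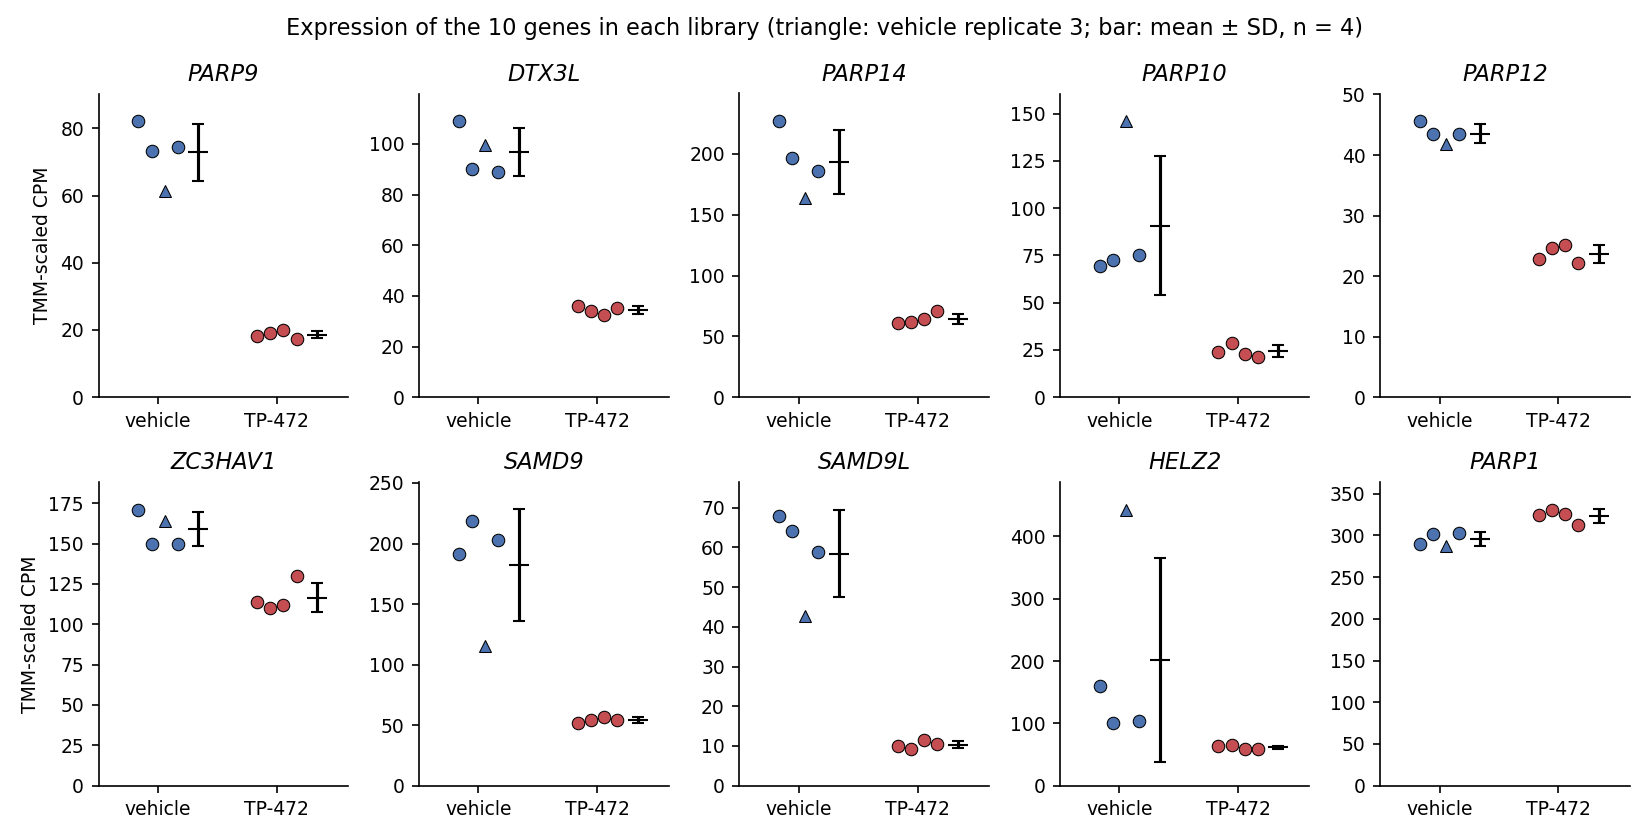
TMM-scaled CPM of the 10 genes in each library, with blue for vehicle and red for TP-472. A triangle marks vehicle replicate 3, and the bar beside each group is its mean ± SD (n = 4). Each gene has its own axis, which starts at 0. In 9 genes every red point lies under every blue point, and in PARP1 every red point lies above them.

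The promoters of these genes were searched for the letters of the interferon-stimulated response element, because 8 of the genes fell together. Windows of 300 bases around RefSeq starts (GRCh38.p14, 250 bases before and 50 from the start on) were available for 9 of the 10 genes, in 11 windows, and both strands were searched. The longer form, GAAANNGAAA, was in the windows of 5 of the 9 genes (PARP9, DTX3L, PARP14, SAMD9 and PARP12), beside 4.38% of 27305 genes and 3.57% of 35116 windows. The shorter form, AANNGAAA, which every longer match also contains, was in 8 of the 9 genes, beside 26.7% of genes and 22.8% of windows. Of the 11 windows, 5 held the longer form and 8 the shorter form. PARP9 and DTX3L share the same match to the longer form. PARP1 had neither form in its window. A match is a run of letters and does not show that a factor binds there. The matched sites are shown with 30 bases each, in the direction of transcription, because all but that of ZC3HAV1, which was not called, lie in genes that fell together. Capitals mark the match, to the longer form in the first 4 and to the shorter form in the last 3.
DTX3L, chr3:122564322-122564351, plus strand: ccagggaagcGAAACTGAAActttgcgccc
PARP14, chr3:122680800-122680829, plus strand: tccaggaaacGAAAGCGAAAgagtcaaagt
SAMD9, chr7:93118096-93118125, minus strand: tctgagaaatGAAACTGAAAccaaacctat
PARP12, chr7:140062942-140062971, minus strand: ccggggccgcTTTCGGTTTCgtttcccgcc
SAMD9L, chr7:93148413-93148442, minus strand: ttctaaagcaaAACTGAAActgtctatact
HELZ2, chr20:63574219-63574248, minus strand: gcccgggccagAATCGAAActgagagctcc
ZC3HAV1, chr7:139109694-139109723, minus strand: atcgcttttagTTTCTCTTctttctaaaga
In PARP12 and ZC3HAV1 the letters are on the strand opposite to transcription, so the capitals show their reverse complement.

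PARP9 and DTX3L lie head to head on chromosome 3 and their products work as a complex. PARP9 has little or no ADP-ribosyl transferase activity on its own, and DTX3L is the E3 ubiquitin ligase that partners it. In GENCODE release 29 on GRCh38, PARP9 spans chr3:122527924-122564577 on the minus strand and DTX3L spans chr3:122564238-122575203 on the plus strand. A RefSeq start of PARP9 and that of DTX3L are 38 bases apart, and the site printed for DTX3L is also the match in the window of PARP9, read on the other strand.

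PARP9 was at 82.2, 73.4, 61.5 and 74.4 CPM in vehicle replicates 1 to 4 and at 18.1, 19.1, 19.9 and 17.4 CPM in TP-472 replicates 1 to 4. The 4 treated libraries lay close together and far under all vehicle libraries, of which vehicle replicate 3 was the lowest. Expression fell from 72.9 ± 8.55 to 18.6 ± 1.1 CPM (mean ± SD over 4 libraries per group). The log2 fold change was −1.97 (SE 0.118, edgeR adjusted p = 2.89e-05), with −2.05 without vehicle replicate 3 and −2.10 with the GC correction. DTX3L was at 109, 90, 99.5 and 88.9 CPM with vehicle and at 36, 33.9, 32.3 and 35.4 CPM with TP-472. Its groups were also well separated, and here vehicle replicate 3 lay among the other vehicle libraries. DTX3L fell by 1.49 on the log2 scale (log2 fold change −1.49, SE 0.105, edgeR adjusted p = 4.81e-05), with −1.48 without vehicle replicate 3 and −1.63 with the GC correction.

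Both partners thus fell, and PARP9 fell further. The ratio of PARP9 to DTX3L counts ran from 0.618 to 0.837 with vehicle and from 0.493 to 0.617 with TP-472, so the groups touched without overlapping. Its log2 difference was −0.47 (exact two-sided permutation test over 70 assignments, p = 0.0286, the smallest that 4 against 4 libraries allow). Without vehicle replicate 3 the difference was −0.56. The ratio was compared after the values were seen, together with that of SAMD9L to SAMD9, and adjustment over these 2 comparisons left the p-value at 0.0286. Transcripts of the pair overlap on opposite strands and share 157 runs of 31 bases, 1.74% of those of PARP9 and 2.68% of those of DTX3L. The study's methods name a strand-specific protocol, whereas the labels name a TruSeq RNA kit. Reads in the shared stretch may therefore not be assigned with certainty.

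PARP14, PARP10 and PARP12 are mono-ADP-ribosyl transferases, which attach single ADP-ribose units. PARP14 is a large protein with macrodomains that bind ADP-ribose. It spans chr3:122680618-122730840 on the plus strand, in the same cluster as PARP9 and DTX3L. PARP14 was at 227, 197, 164 and 186 CPM in the vehicle libraries and at 61, 62, 64.4 and 70.5 CPM in the treated libraries. Every treated library was far under the lowest vehicle library, which was again replicate 3. The fall was 3-fold, from 193 ± 26.2 to 64.5 ± 4.27 CPM (log2 fold change −1.58, SE 0.122, edgeR adjusted p = 7.81e-05), with −1.66 without vehicle replicate 3 and −1.73 with the GC correction.

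PARP10 is a mono-ADP-ribosyl transferase of chromosome 8 (chr8:143977153-144012772, minus strand) and the most GC-rich PARP gene among the 10. It was at 69.4, 72.3, 146 and 75.4 CPM with vehicle and at 24.1, 28.6, 22.8 and 21.4 CPM with TP-472. Vehicle replicate 3 was far above the 3 other vehicle libraries, which were close to each other and above all treated libraries. The log2 fold change was −1.91 (SE 0.252, edgeR adjusted p = 9.12e-04) with all libraries, −1.58 (adjusted p = 2.21e-06) without vehicle replicate 3 and −1.40 with the GC correction. PARP10 shares its stretch of chromosome with GRINA, and strand bears on that overlap as well. GRINA, which encodes a membrane protein, was not called (log2 fold change −0.25, edgeR adjusted p = 0.40).

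PARP12, a transferase with zinc fingers that bind RNA, spans chr7:140023744-140063721 on the minus strand. Vehicle libraries held 45.6, 43.4, 41.8 and 43.4 CPM and treated libraries held 22.8, 24.7, 25.1 and 22.1 CPM. Both groups were tight and clearly apart, and vehicle replicate 3 did not stand out. PARP12 fell 1.84-fold, the smallest fall among the 8 genes called (log2 fold change −0.88, SE 0.0962, edgeR adjusted p = 3.68e-04), with −0.90 without vehicle replicate 3 and −0.77 with the GC correction.

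ZC3HAV1 encodes the zinc-finger antiviral protein ZAP, also named PARP13, a family member without transferase activity that binds CpG-rich viral RNA and brings about its decay. It spans chr7:139043520-139109719 on the minus strand. Vehicle libraries were at 171, 150, 164 and 150 CPM and treated libraries at 114, 110, 112 and 130 CPM. The groups did not overlap, and TP-472 replicate 4 was the treated library nearest to the vehicle libraries. The decrease was 1.36-fold, under the fold limit, with a log2 fold change of −0.44 (SE 0.101, edgeR adjusted p = 0.01). Without vehicle replicate 3 it was −0.43 and with the GC correction −0.58. The cofactors of ZAP were measured too. TRIM25, the ubiquitin ligase that works with ZAP, had a log2 fold change of −0.38 (edgeR adjusted p = 0.0563), and KHNYN, its nuclease partner, of −0.51 (adjusted p = 0.00421, under the fold limit). Of the 2 cofactors, 0 were called, beside 26.9% of all tested genes.

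SAMD9 and SAMD9L are neighbouring paralogs on chromosome 7 that restrict poxviruses and slow cell growth and translation. SAMD9 spans chr7:93099513-93118023 and SAMD9L spans chr7:93130055-93148369, both on the minus strand, with 12031 bases between them. Their transcripts share only 2 runs of 31 bases, of 6854 in SAMD9 and 7255 in SAMD9L, so few reads could be split between the paralogs. SAMD9L was at 67.9, 64.1, 42.8 and 58.9 CPM with vehicle and at 10.1, 9.25, 11.6 and 10.5 CPM with TP-472. All treated libraries were near the same low level, and vehicle replicate 3 was the lowest of its group. SAMD9L fell from 58.4 ± 11.1 to 10.3 ± 0.962 CPM, a log2 fold change of −2.50 (SE 0.164, edgeR adjusted p = 3.97e-05), with −2.62 without vehicle replicate 3 and −2.65 with the GC correction. This was the largest fall among the 10 genes, and 0.298% of all tested genes had a lower log2 fold change. The lowest count behind these values was 328, in TP-472 replicate 2.

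SAMD9 was the more abundant paralog, at 191, 219, 115 and 203 CPM with vehicle and 51.5, 54.1, 56.8 and 54.6 CPM with TP-472. Vehicle replicate 3 lay well under the other vehicle libraries but still above every treated library. The log2 fold change was −1.75 (SE 0.188, edgeR adjusted p = 3.29e-04), −1.92 without vehicle replicate 3 and −1.91 with the GC correction. SAMD9L fell further than SAMD9. The ratio of SAMD9L to SAMD9 was 0.29 to 0.371 with vehicle and 0.172 to 0.205 with TP-472, without overlap. Its log2 difference was −0.77 with all libraries and −0.70 without vehicle replicate 3 (exact permutation p = 0.0286, the smallest possible, and 0.0286 adjusted over both ratios).

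HELZ2 encodes a large helicase that acts as a coactivator of nuclear receptors and is interferon-stimulated. It spans chr20:63558086-63574239 on the minus strand. Its vehicle libraries were at 160, 100, 443 and 104 CPM and its treated libraries at 63.2, 64.6, 59.4 and 59.2 CPM. Vehicle replicate 3 was far above the others, and all treated libraries were under the lowest vehicle library. With all libraries the log2 fold change was −1.71 with a wide SE of 0.451 (edgeR adjusted p = 0.0182). Without vehicle replicate 3 it was −0.99 (SE 0.147, adjusted p = 4.04e-04), so the fold change moved from 3.28 to 1.98, and the vehicle mean moved from 202 ± 163 CPM (n = 4) to 121 ± 33.7 CPM (n = 3). The GC correction gave −1.01. The call was lost when any single TP-472 library was left out, with adjusted p-values of 0.051 to 0.056.

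**Figure D3:**
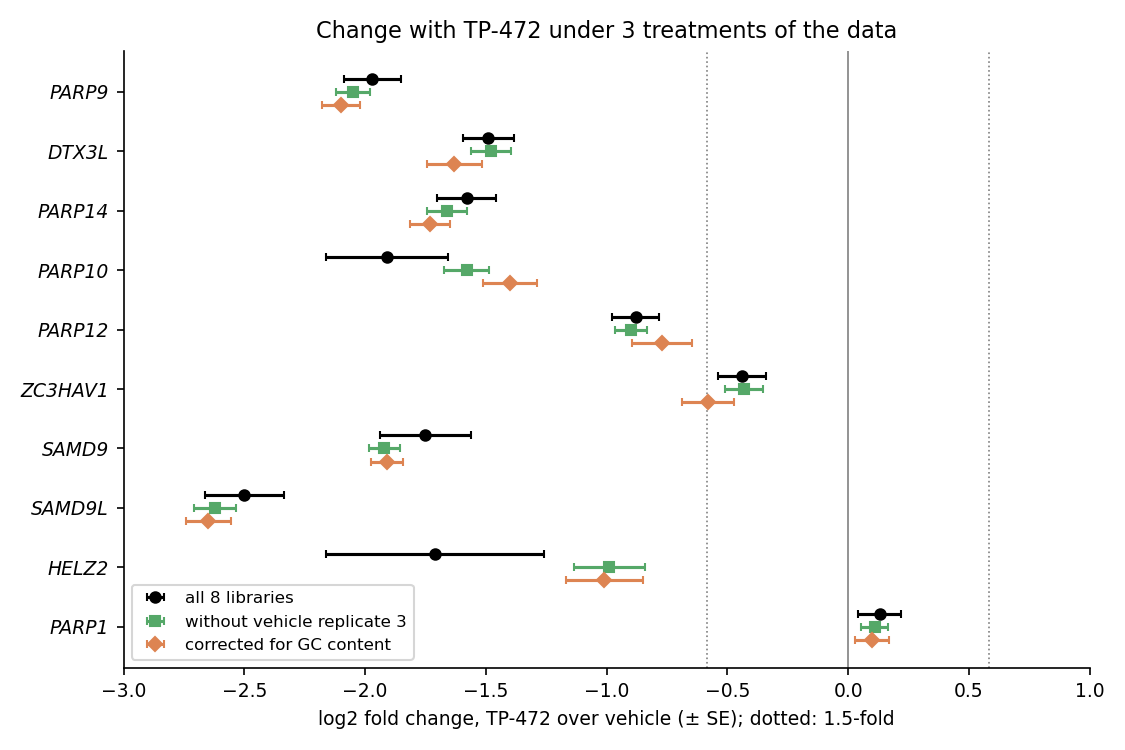
Log2 fold change of TP-472 over vehicle (± SE) for the 10 genes, with all 8 libraries (black circles), without vehicle replicate 3 (green squares) and with the GC correction (orange diamonds). Dotted lines mark a 1.5-fold change. The point of HELZ2 moves from −1.71 to −0.99 and −1.01, while that of SAMD9L stays between −2.65 and −2.50.

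PARP1, the DNA break sensor, spans chr1:226360691-226408079 on the minus strand. It was at 290, 302, 287 and 303 CPM with vehicle and at 325, 331, 326 and 312 CPM with TP-472. The treated libraries were all slightly above the vehicle libraries, and neither group had a library apart from the rest. The means were 296 ± 8.22 and 324 ± 7.95 CPM, a log2 fold change of 0.13 (SE 0.0874, 95% confidence interval −0.068 to 0.33, edgeR adjusted p = 0.265). The exact two-sided permutation test on PARP1 alone gave p = 0.0286, the smallest possible for 4 against 4 libraries. Without vehicle replicate 3 the log2 fold change was 0.11 and with the GC correction 0.10, neither called. The interval excludes a 1.5-fold change in either direction (0.585 on the log2 scale). Of 6 partners of PARP1 in DNA repair, XRCC1, the scaffold of single-strand break repair, was called lower (log2 fold change −0.69, edgeR adjusted p = 0.0237), 0 were called higher, and the median was −0.073. This is 1 gene in 6, beside the 14.9% of all tested genes called lower. CHD1L, a chromatin remodeller with the highest CPM of the 6, not scaled for length, was not called (−0.12, adjusted p = 0.552). The call of XRCC1 was lost without vehicle replicate 3 (log2 fold change −0.46), which held 50 CPM against 27.8 to 30.5 in the other vehicle libraries. On the same strand, about 4.16% of the 31-base runs of PARP1 also occur in other genes, mostly in the pseudogene PARP1P1. On the opposite strand 2.45% do, mostly in AL137191.1.

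Levels were compared between genes as CPM per kilobase of the longest GENCODE transcript. With vehicle the order was PARP1 (74.7 ± 2.08 CPM per kb), SAMD9 (26.6), PARP10 (26), HELZ2 (25), PARP14 (22.9), ZC3HAV1 (22.3), DTX3L (16.5), PARP12 (11.5), PARP9 (10.8) and SAMD9L (8.19). The levels from SAMD9 to ZC3HAV1 lay within the spread of the 4 vehicle libraries, as did PARP12 and PARP9, while PARP1 was clearly above all others. Vehicle replicate 3 widened that spread and carried the level of HELZ2. Without it, SAMD9 was at 29.8 ± 2.08 CPM per kb, above PARP14 (24.1 ± 2.53), ZC3HAV1 (22.1 ± 1.7) and PARP10 (20.7 ± 0.853), and HELZ2 was at 15.1 ± 4.17, within the spread of DTX3L. With TP-472 the level was 81.7 CPM per kb for PARP1, 16.4 for ZC3HAV1 and 7.92 for SAMD9, with SAMD9L again the lowest at 1.45. ZC3HAV1 was thus second to PARP1 in the treated libraries.

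**Figure D4:**
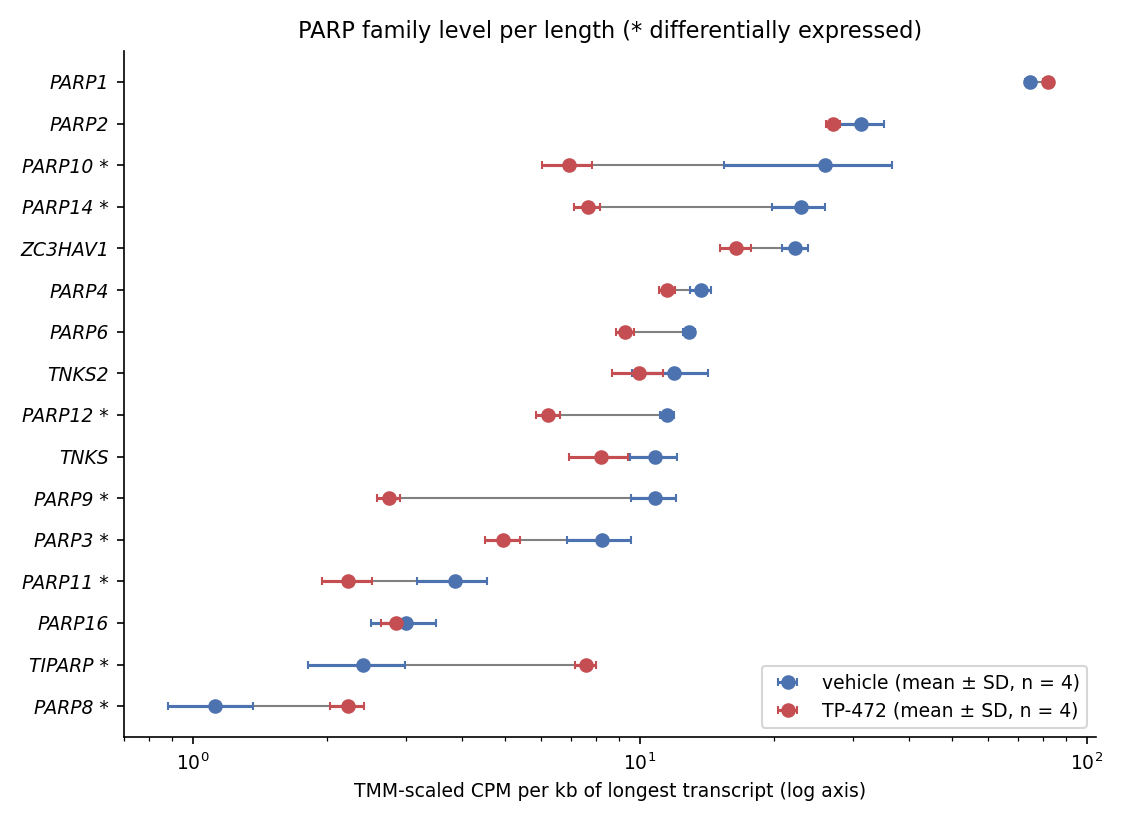
TMM-scaled CPM per kilobase (log axis) of 16 PARP family genes in vehicle (blue) and TP-472 (red) libraries, mean ± SD (n = 4), with an asterisk for differentially expressed genes. PARP15, which is near 0, is not drawn. PARP9, PARP10, PARP12 and PARP14 move to the left, TIPARP and PARP8 to the right, and PARP1 stays at the top.

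Set against the whole PARP family of 17 genes on the same per-length scale, PARP1 made up 28 ± 1.09% of the summed level with vehicle and 39.4 ± 1.4% with TP-472. PARP9, PARP10, PARP12, PARP14 and ZC3HAV1 together made up 35 ± 2.98% with vehicle (33.5% without replicate 3) and 19.3 ± 0.222% with TP-472. These are shares of a sum, so the share of PARP1 is larger where the others are lower. Of the 10 other PARP genes tested, 2 were called lower and 2 higher, beside 14.9% and 12% of all tested genes, with a median log2 fold change of −0.25. TIPARP, a mono-ADP-ribosyl transferase induced by the aryl hydrocarbon receptor, was at 11, 12, 6.46 and 10.7 CPM with vehicle and 30.4, 33.8, 32.4 and 30.1 CPM with TP-472, so all treated libraries were higher. It rose 3.15-fold (log2 fold change 1.66, SE 0.187, edgeR adjusted p = 4.25e-04), with 1.49 without vehicle replicate 3. PARP8, a less studied transferase, rose too (log2 fold change 0.99, edgeR adjusted p = 0.00333). PARP11, a mono-ADP-ribosyl transferase that has been linked to interferon signalling, fell (log2 fold change −0.79, adjusted p = 0.00596). PARP3, which acts in DNA break repair, also fell (log2 fold change −0.73, adjusted p = 0.00542), and its fold change was under the limit with the GC correction (−0.51). PARP2, the closest relative of PARP1, was not called (log2 fold change −0.21, adjusted p = 0.177), nor was TNKS, or tankyrase, the one with the most CPM (−0.41, adjusted p = 0.0444, under the fold limit).

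Of 5 tested enzymes that remove ADP-ribose, MACROD1, a mitochondrial ADP-ribose hydrolase, was called lower and 0 were called higher, beside 14.9% and 12% of all tested genes. MACROD1 was at 8.06, 7.82, 14.2 and 6.97 CPM with vehicle and 3.83, 3.64, 3.25 and 3.04 CPM with TP-472, with vehicle replicate 3 the highest (log2 fold change −1.43, edgeR adjusted p = 0.00257, and −1.15 without vehicle replicate 3). PARG, which degrades ADP-ribose chains, had a log2 fold change of 0.15 (adjusted p = 0.276). ADPRS, the hydrolase that releases ADP-ribose from serine, had 0.58 (adjusted p = 0.0143), under the fold limit with all libraries and above it without vehicle replicate 3 (0.64). Among the enzymes that make NAD+, the substrate of PARPs, 5 were tested, with 1 called in each direction, beside 14.9% of all tested genes called lower and 12% higher, and a median of −0.36. NAMPT, the rate-limiting enzyme of NAD+ salvage, was at 128, 156, 70.9 and 156 CPM with vehicle and 207, 222, 230 and 232 CPM with TP-472. All treated libraries were above the vehicle libraries, and NAMPT rose (log2 fold change 0.80, edgeR adjusted p = 0.0234, and 0.60 without vehicle replicate 3). NMNAT3, which makes NAD+ from its mononucleotide precursor, fell from a low level (log2 fold change −0.89, adjusted p = 0.0239). Of the 3 other Deltex ligases tested, DTX3 was called lower (−0.91, adjusted p = 0.0113, and −0.57, under the fold limit, with the GC correction) and DTX4 higher (0.77, adjusted p = 0.00555).

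Upstream of the interferon-linked genes, the receptor chains and JAK1 were not called, whereas STAT2 and IRF9, parts of ISGF3, fell. Of the 6 genes of receptors, kinases and ISGF3 described here, 3 were called lower and 0 higher, beside 14.9% and 12% of all tested genes, with a median log2 fold change of −0.51. Without vehicle replicate 3 and with the GC correction, 2 were called lower. STAT2 was at 99.1, 91.3, 115 and 88.5 CPM with vehicle and 38.5, 36.8, 37.4 and 35.6 CPM with TP-472, without overlap. It fell by 1.41 on the log2 scale (log2 fold change −1.41, SE 0.111, edgeR adjusted p = 8.05e-05) and IRF9, the DNA-binding part of ISGF3, by 1.57 (log2 fold change −1.57, adjusted p = 2.08e-04). The receptor chains IFNAR1 and IFNAR2 had log2 fold changes of 0.081 and −0.25 and the kinase JAK1 of −0.023 (adjusted p = 0.636, 0.26 and 0.871 in edgeR). TYK2, the other kinase of the type I receptor, was called lower (log2 fold change −0.76, adjusted p = 0.0168), but its vehicle replicate 3 stood at 166 CPM against 93 to 100 in the others, and without it the log2 fold change was −0.52, under the fold limit.

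Most of the interferon ligands looked at were hardly detected. Of 8 interferon ligands, IFNE, an interferon of the female reproductive tract, passed the filter, at 4.09 ± 1.46 CPM with vehicle and 2.16 ± 0.938 CPM with TP-472 (log2 fold change −0.92, edgeR adjusted p = 0.0655). With the GC correction it was called lower (log2 fold change −1.23, adjusted p = 0.0363). IFNA1 and IFNK had no count in any library. The 5 others, among them IFNB1 and IFNG, had few counts.

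All 20 classical interferon-stimulated genes of the list were called lower with TP-472, with 0 higher and a median log2 fold change of −2.06, beside the background of 14.9% of tested genes called lower. The count was 20 without vehicle replicate 3 and with the GC correction too. XAF1, which promotes apoptosis, was at 51.3, 49.6, 60 and 47.8 CPM with vehicle and 5.44, 4.82, 5.35 and 4.78 CPM with TP-472. This 10.2-fold difference was the largest of the list (log2 fold change −3.35, edgeR adjusted p = 7.59e-06). MX2, a GTPase that blocks HIV and other viruses, had the next largest change (log2 fold change −3.13, adjusted p = 3.97e-05). OAS3, an antiviral synthetase of 2-5A with the highest CPM of the list, not scaled for length, fell from 330 ± 104 to 85 ± 5.51 CPM (log2 fold change −1.95, adjusted p = 3.00e-04). ISG15, a ubiquitin-like modifier, fell 3.33-fold (log2 fold change −1.73, adjusted p = 0.00125), or −1.45 without vehicle replicate 3, where it held 419 CPM against 217 to 224 in the other vehicle libraries. The smallest fall was that of USP18, the protease that removes ISG15 and restrains the receptor (1.93-fold, log2 fold change −0.95, adjusted p = 5.02e-04). With all 8 libraries, PARP12 and ZC3HAV1 had smaller decreases than every gene of this list, and SAMD9L a larger one than the list's median.

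**Figure D5:**
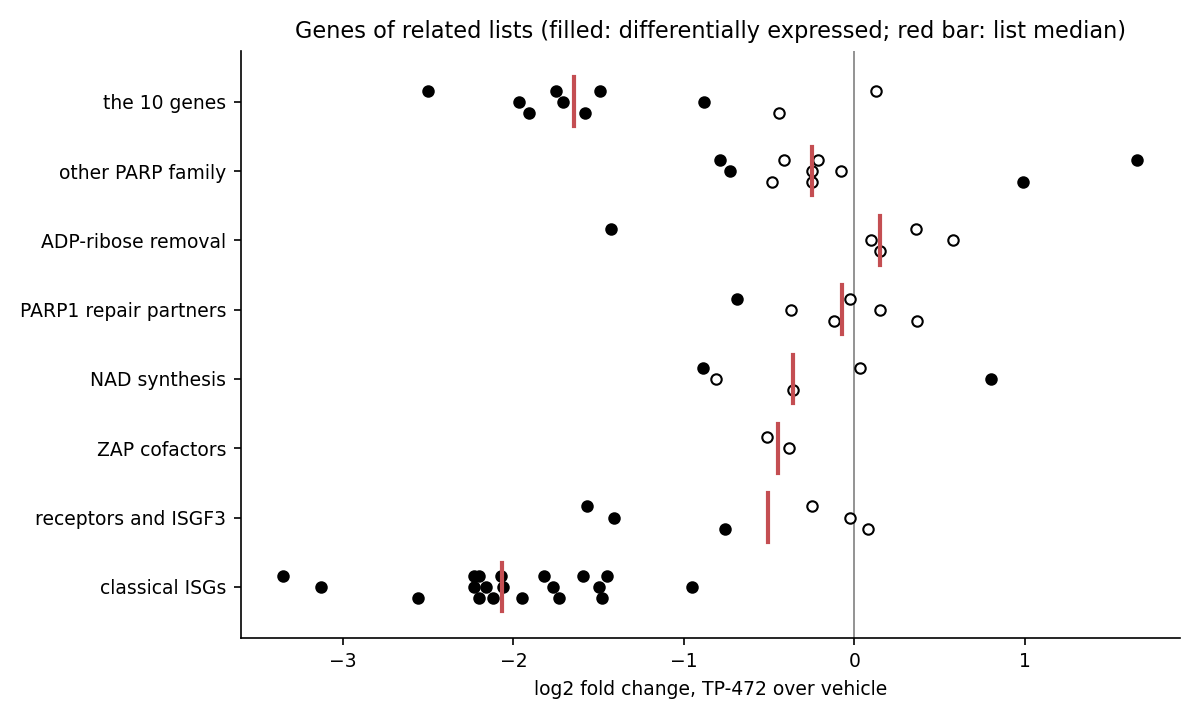
Log2 fold changes (TP-472 over vehicle, all 8 libraries) of the tested genes of 8 lists, 1 point per gene, filled where differentially expressed, with a red bar at each list's median. The medians are −1.65 for the 10 genes, −0.25 for the other PARP genes, −0.51 for receptors and ISGF3 and −2.06 for the 20 classical interferon-stimulated genes.

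The genes whose profile was most like that of the 9 genes other than PARP1 were found by Pearson correlation of log2 CPM over the 8 libraries, among the 11078 genes that averaged 5 CPM or more. The 5 with the highest r were OAS2 (0.999), COL1A2 (0.999), ZNF608 (0.998), XAF1 (0.998) and FKBP9 (0.997). Spearman's rho was lower, at 0.976, 0.857, 0.810, 0.833 and 0.762 in the same order. OAS2 encodes an antiviral synthetase of 2-5A and COL1A2 a chain of type I collagen. These libraries form 2 groups, so r mainly reflects the difference between them. COL1A2 went from 589 to 98.8 CPM (log2 fold change −2.58), OAS2 from 65.7 to 14 CPM (−2.23), ZNF608, a zinc-finger gene, from 104 to 43.6 CPM (−1.26), and FKBP9, a prolyl isomerase of the secretory pathway, from 57.3 to 35.7 CPM (−0.68). The order among these 5 was the same without vehicle replicate 3. Their ranks among all genes compared moved, with OAS2 at 3 and FKBP9 at 41. Most like PARP1 were MRPS18A (0.995), a mitochondrial ribosomal protein, FLAD1 (0.995), the synthase of FAD, and STIP1 (0.993), a co-chaperone. Without vehicle replicate 3 they ranked 17, 21 and 49.

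Genes beside these loci on the chromosome were measured as well. Of 17 annotated neighbours, 12 were tested, 2 were called lower and 0 higher, beside 14.9% and 12% of all tested genes. Both called genes lie beside PARP10. PLEC, which encodes the cytoskeletal linker plectin, had a log2 fold change of −1.79 (edgeR adjusted p = 0.0412), or −0.73 without vehicle replicate 3, which was at 679 CPM against 99 to 180 in the other vehicle libraries. OPLAH, the 5-oxoprolinase of glutathione metabolism, had −1.22 (adjusted p = 0.0232), or −0.73 without vehicle replicate 3, which was at 28.2 CPM against 9.98 to 11.8. PARP15, which lies between DTX3L and PARP14, was near 0 in every library. KPNA1, an importin on the other side of PARP9, had a log2 fold change of 0.46 (adjusted p = 0.0279), and HSPBAP1, beyond PARP14, of −0.50 (adjusted p = 0.0386), both under the fold limit, although HSPBAP1 passed it without vehicle replicate 3 (−0.63).

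The drug's targets and markers of cell type were measured alongside. BRD9 had a log2 fold change of −0.16 (edgeR adjusted p = 0.486) and BRD7 of 0.11 (adjusted p = 0.324), neither called. Since TP-472 acts on the proteins, these levels do not check the treatment. Of 7 smooth muscle markers, CALD1 was at 200 CPM with vehicle and 192 with TP-472 and ACTA2 at 160 and 109 CPM, and per length ACTA2 was the higher (119 against 46.6 CPM per kb with vehicle), whereas MYH11, the myosin of differentiated smooth muscle, was near 0. Of the 6 tested, TAGLN was called lower and 0 were called higher, beside 14.9% and 12% of all tested genes, apart from DES. DES passed the filter through the vehicle libraries alone (3.01 to 3.49 CPM, against 0.396 to 0.777 CPM with TP-472), so it could only be called lower, and it was not tested without vehicle replicate 3. The call of TAGLN was lost with the GC correction (log2 fold change −0.46), and ACTA2 was called without vehicle replicate 3 (−0.60). The 7 smooth muscle markers summed to 438 to 520 CPM with vehicle and to 370 to 379 CPM with TP-472. The 7 immune markers summed to 0.45 to 0.753 CPM with vehicle and 0.88 to 1.16 CPM with TP-472, with CD14 at the highest CPM and CD3E and NKG7 at 0 counts in every library. The 3 endothelial markers summed to 0.0554 to 0.144 CPM with vehicle and 0.414 to 0.581 CPM with TP-472, with VWF at the highest CPM. The defining immune markers were therefore at or near 0 in both groups.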

How the data were processed

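Total RNA from SK-UT-1 cells was sequenced in 4 vehicle and 4 TP-472 libraries. The authors estimated transcript abundance with Salmon 1.4.0 on GRCh38 and summed it by gene with tximport and GENCODE release 34, so the deposited values are estimated counts, neither normalized nor filtered. The labels name a TruSeq RNA kit and the study's methods a strand-specific protocol. Counts were rounded, scaled by TMM and tested in edgeR 4.0.16 under R 4.3.3 (quasi-likelihood), without a term for replicate. Genes needed more than 1 CPM in at least 4 libraries. Single values were compared by exact permutation. Positions, GC content and lengths came from GENCODE release 29, joined by identifier (99.3% of tested genes), and promoters from RefSeq. The 10 genes and all lists were chosen with earlier results of these data known, and the values of 1 gene written for the interferon lists are not reported here. Genes named are the 10, list genes (the highest CPM, the largest changes and some chosen after their values were seen, such as USP18), chromosomal neighbours and those of most similar profile. On simulated data, 179 of 200 changed genes and 9 of 13873 unchanged genes were called. The simulation gave all genes the same dispersion and held no library like vehicle replicate 3. It therefore gives no error rate for the calls in the real data. Library totals were 32574716 counts or more, and counting error was not compared with the spread between replicates. Alternatives were DESeq2 1.42.0, limma 3.58.1 (voom with quality weights), other scalings and filters, a replicate block, a GC correction and each library left out.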

Additional observations from a re-analysis of the deposited data

Results flagged for a closer look

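Among 53 genes, the 10 genes and others named from the lists and neighbours (106 groups of 4 libraries), 15 groups held a library far from the other 3 (a gap beyond Dixon's 95% critical value), 11 of them with vehicle replicate 3. Chance gives this in about 1 of 20 independent groups. These groups share libraries, and some genes were named after their values were seen, so the count is no test against chance. In PARP10, vehicle replicate 3 was at 146 CPM. The other 10 genes with vehicle replicate 3 apart were MACROD1 (14.2 CPM), PARG (48 CPM), DTX3 (42.2 CPM), TYK2 (166 CPM), JAK1 (195 CPM), XRCC1 (50 CPM), ISG15 (419 CPM), BRD9 (115 CPM), PLEC (679 CPM) and OPLAH (28.2 CPM). It was the highest of its group in all of these but PARG and JAK1, in which it was the lowest. TNKS (123 CPM) and IFNAR1 (52.8 CPM) were highest and TAGLN (27.2 CPM) was lowest in vehicle replicate 1, and IFNAR1 was highest among the treated libraries in TP-472 replicate 4 (51.9 CPM). HELZ2, whose vehicle replicate 3 was at 443 CPM, came just under the limit, with a gap of 0.825 of the range.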

How the results depend on the processing

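Under 20 alternatives, including each library left out, the log2 fold changes of the 10 genes kept their direction. The number of the 10 genes called was 8 under all of them except with any single TP-472 library left out, which gave 7 without HELZ2 (log2 fold change −1.72 to −1.68). Its log2 fold change ran from −1.95 to −0.76, the latter with quality weights. ZC3HAV1 had adjusted p-values up to 0.0547 and PARP1 from 0.0228 (quality weights) to 0.54. The number of differentially expressed genes was 3789 in edgeR and 2486 to 4110 with a library left out (2486 without TP-472 replicate 3). It was 5575 in DESeq2, 5090 with no filter on low counts and 2672 with a filter of more than 5 CPM. Genes called lower numbered 1321 to 2325 and higher 1165 to 1785 with a library left out, with 1321 lower without TP-472 replicate 3 and 1345 without TP-472 replicate 2. The likeness of 4 of the 5 genes to the 9-gene profile moved with Spearman's rho (0.762 to 0.857). DESeq2 gave 2678 genes called higher, against 1693. Between all libraries and those without vehicle replicate 3, 2987 calls were shared, of 3789 and 3474. Pairing by replicate number was looked for in the deviations of the libraries from their group means. The correlations of same-numbered deviations were −0.0554, 0.116, −0.171 and −0.177, and no library matched its own number best. Vehicle replicate 3 entered the vehicle mean and so shaped all vehicle deviations. This check therefore could not show whether the numbers pair the libraries. A replicate block gave 3055 genes and 8 of the 10, and with the GC correction 3702 and 8. The GC correction without vehicle replicate 3, added after seeing the data, gave 3435 and 8. The cause of these differences was not tested.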

Other observations

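Epithelial markers were also measured in these mesenchymal tumour cells. Of 5 markers, 3 were tested. KRT18, a keratin of simple epithelia, was at 6.18, 7.56, 8.25 and 7.59 CPM with vehicle and at 15.9, 17.4, 15.4 and 13.8 CPM with TP-472, so every treated library was higher, and it rose (log2 fold change 1.08, SE 0.136, edgeR adjusted p = 7.26e-04). KRT19 fell (log2 fold change −0.85, adjusted p = 0.0151), and its decrease was under the fold limit with the GC correction (−0.49). KRT8, the partner of KRT18, had a log2 fold change of 0.52 (adjusted p = 0.0959) with all libraries and was called higher with the GC correction (0.69, adjusted p = 0.033). The 3 tested markers thus gave 1 call in each direction, beside 14.9% of tested genes lower and 12% higher, and 2 higher and 0 lower with the GC correction. EPCAM and CDH1 were under 1 CPM in all libraries. The summed level of the 5 markers was 17.5 to 23.1 CPM with vehicle and 20.4 to 26.8 CPM with TP-472.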
